A study of Mus musculus with 6 samples.

Results

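The genes described here are the 4 YEATS domain genes of the mouse, Yeats4, Yeats2, Mllt1 and Mllt3, out of 21896 protein-coding genes in the RefSeq table of GRCm38.p6. For each gene, every CpG cytosine from 2 kb below the lower coordinate of the gene to 2 kb above the upper one was taken if at least 10 reads covered it in all 6 libraries. This left 447 of the 1457048 cytosines measured in all libraries, with 66 at Yeats4, 60 at Yeats2, 188 at Mllt1 and 133 at Mllt3. Yeats4 was picked because methylation near its 3' end differed between the Tet2 knockout and wild-type libraries, so that difference is described without a test. Near that end, methylation averaged 46.7% in KO and 13.0% in WT, while the 5' ends of all 4 genes were unmethylated in both genotypes. Yeats2, Mllt1 and Mllt3 were added as the other genes of the family.

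The libraries were made by enhanced reduced representation bisulfite sequencing (ERRBS) of naive B cells isolated from mouse spleens. There were 3 libraries from cells with the genotype TET2 Knock-Out (KO 1, KO 2 and KO 3) and 3 with the genotype TET2 Wild-Type (WT 1, WT 2 and WT 3), all of strain C57BL/6 and without treatment, and the labels give neither age nor the design of the knockout allele. The study's design text names GC B cells where its title and every sample label say naive B cells, which are the cells assumed here. The labels do not state that each library came from another mouse, so the p-values below speak only of the variation among these 6 libraries, which may be partly technical.

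ERRBS enriches for restriction fragments of CpG-dense DNA and reads methylation by bisulfite, which turns an unmethylated cytosine into a base read as T. A methylation level is the percent of reads with C, and 5-methylcytosine and 5-hydroxymethylcytosine both count as C. Coverage summed over the cytosines of a library was 168455105 to 207065050, with a median of 92 to 110 reads per cytosine. Read numbers of regions below are such sums, in which a read spanning several cytosines counts once for each. Over all cytosines, methylation averaged 33.7% ± 0.112 in KO and 33.4% ± 0.112 in WT (SD, n = 3 each). At Tet2, 6 cytosines (chromosome 3, 133486189 to 133486297) reached 10 reads in none of the KO libraries and had 28 to 71 reads in each WT library. How many other cytosines, at Tet2 or elsewhere, were missing from KO alone is not given here. These 6 are therefore a description and do not settle the genotype labels.

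TET2 oxidises 5-methylcytosine, which is a step towards the removal of methylation, and loss of TET2 is a common event in haematopoietic malignancy. The YEATS domain is a protein module that binds acylated lysines, mainly acetyl-lysine and crotonyl-lysine, on histone tails, and thereby ties transcription and chromatin complexes to active chromatin. YEATS4 (GAS41) is a subunit of both the TIP60 and p400 acetyltransferase complex and the SRCAP complex, which exchange the histone variant H2A.Z into nucleosomes, and YEATS2 is a subunit of the ATAC acetyltransferase complex. MLLT1 (ENL) and MLLT3 (AF9) are close relatives that link acylated histones to the super elongation complex and to the histone methyltransferase DOT1L, and both are known as fusion partners of MLL in leukaemia.

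Yeats4 (gene 64050) lies on the minus strand of chromosome 10 from 117215141 to 117224507 (GRCm38) and spans 9.37 kb. Its measured cytosines formed 2 dense groups, 45 around the 5' end and 19 near the 3' end, with 2 single cytosines between them. The 45 cytosines within 1 kb of the 5' end were unmethylated in every library. Methylation there was 0.185% in KO 1, 0.261% in KO 2 and 0.0316% in KO 3, against 0.2003% in WT 1, 0.122% in WT 2 and 0.173% in WT 3, from 4600 to 7489 reads per library. The KO and WT libraries overlapped, with a mean of 0.159% ± 0.117 in KO and 0.165% ± 0.0399 in WT (SD, n = 3 each).

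The 4 promoters are shown because all of them stood near 0% in both genotypes, unlike the 3' end of Yeats4. Each runs 5' to 3' on the strand of its gene, from 250 bases before to 50 bases after the start (RefSeq, GRCm38.p6), and capitals mark the CpGs whose cytosine was measured on at least 1 strand in all 6 libraries. They are Yeats4 at chr10:117224458-117224757 (minus strand), Yeats2 at chr16:20140813-20141112 (plus strand), Mllt1 at chr17:56935339-56935638 (minus strand) and Mllt3 at chr4:88033358-88033657 (minus strand).
Yeats4: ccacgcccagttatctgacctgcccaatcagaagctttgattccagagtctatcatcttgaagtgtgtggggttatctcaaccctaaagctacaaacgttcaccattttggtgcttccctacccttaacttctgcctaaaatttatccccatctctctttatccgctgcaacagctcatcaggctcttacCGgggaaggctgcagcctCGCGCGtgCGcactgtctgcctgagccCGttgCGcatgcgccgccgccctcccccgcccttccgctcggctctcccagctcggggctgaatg
Yeats2: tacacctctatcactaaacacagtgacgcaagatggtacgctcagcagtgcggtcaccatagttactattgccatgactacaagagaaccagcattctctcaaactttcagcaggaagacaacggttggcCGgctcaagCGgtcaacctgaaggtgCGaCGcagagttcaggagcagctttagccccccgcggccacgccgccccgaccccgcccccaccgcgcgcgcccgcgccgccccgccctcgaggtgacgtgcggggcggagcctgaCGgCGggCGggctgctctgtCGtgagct
Mllt1: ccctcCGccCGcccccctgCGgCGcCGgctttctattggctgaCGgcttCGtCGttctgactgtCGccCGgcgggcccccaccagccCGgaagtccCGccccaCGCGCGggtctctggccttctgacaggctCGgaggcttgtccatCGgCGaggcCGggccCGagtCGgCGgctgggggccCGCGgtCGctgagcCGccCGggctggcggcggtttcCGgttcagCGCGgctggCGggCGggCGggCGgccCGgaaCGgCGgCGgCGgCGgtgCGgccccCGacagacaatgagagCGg
Mllt3: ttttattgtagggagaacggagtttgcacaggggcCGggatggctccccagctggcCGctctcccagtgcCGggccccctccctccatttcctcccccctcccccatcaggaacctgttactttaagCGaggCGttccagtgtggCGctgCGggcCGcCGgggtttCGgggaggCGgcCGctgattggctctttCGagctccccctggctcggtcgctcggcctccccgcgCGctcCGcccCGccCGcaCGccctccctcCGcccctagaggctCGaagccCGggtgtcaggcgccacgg

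The Yeats4 promoter held 17 CpGs, of which 7 were measured, and 13 of its 8636 reads, summed over cytosines and the 6 libraries, carried C. Yeats2 had 30 CpGs with 8 measured and 11 of 5811 reads with C, and Mllt3 had 29 CpGs with 21 measured and 15 of 22302 reads with C. Mllt1 had the most, 46 CpGs with 43 measured, and 63 of 49150 reads with C. The median over 21262 RefSeq promoters of this length was 13 CpGs, so all 4 were above it. A second start of Mllt3 lies within the gene, and its promoter (chr4:87806274-87806573) had 4 CpGs, none of them measured.

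Matches to 6 motifs were searched on both strands of these windows, as letters only. The palindrome CGCATGCG, the core of the sequence bound by the transcription factor NRF1, occurred in Yeats4, where it begins 10 bases upstream of the start, and in none of the other 3, and 2.52% of the 21262 promoters hold it. The one measured cytosine in it, at 117224517, read 0% in all 6 libraries. GGGCGG, the core bound by SP factors, occurred 2 times in Yeats4, 6 times in Yeats2, 7 times in Mllt1 and 3 times in Mllt3, and in 46.2% of promoters. CCAAT occurred 1 time each in Yeats4, Mllt1 and Mllt3 (38.2% of promoters) and the ETS sequence CCGGAAGT 1 time in Mllt1 (5.14%). Neither TATAAA (12.6%) nor TGACGTCA (2.23%) was present in any of the 4. Overlapping matches were counted separately, as at Mllt1, where neighbouring GGGCGG matches share letters, and no match or its absence says whether a factor binds.

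The 3' end of Yeats4 was the region by which the gene was chosen. Its 19 cytosines span 176 bases of chromosome 10 from 117215463 to 117215638, which lie inside the gene, 322 to 497 bases upstream of the 3' end. They belong to 15 CpGs, 4 of which were measured on both strands. Which exon or untranslated region they fall in was not analysed here. The window of 1 kb on each side of the 3' end (117214141 to 117216141) holds no other measured cytosine.

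Methylation over the pooled reads of the 19 cytosines was 48.1% in KO 1, 52.2% in KO 2 and 39.7% in KO 3, against 4.0% in WT 1, 17.6% in WT 2 and 17.4% in WT 3. All KO libraries were above all WT libraries, and the gap between the lowest KO and the highest WT library was wider than the spread within either genotype. The mean was 46.7% ± 6.41 in KO and 13.0% ± 7.81 in WT (SD, n = 3 each), a difference of 34.0 percentage points when reads were pooled by genotype. Coverage summed over the 19 cytosines was 1232, 1796 and 1546 in KO 1, KO 2 and KO 3, against 2625, 2461 and 2579 in WT 1, WT 2 and WT 3. In these sums a read counts once for each cytosine it spans. The mean per cytosine was 64.8, 94.5 and 81.4 reads in KO 1, KO 2 and KO 3, against 138.2, 129.5 and 135.7 in WT 1, WT 2 and WT 3. WT 1 stood apart from the other WT libraries, and without it the difference was 29.4 points. In such bulk libraries, a change in every cell and a change in the mix of cells cannot be told apart.

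**Figure D1:**
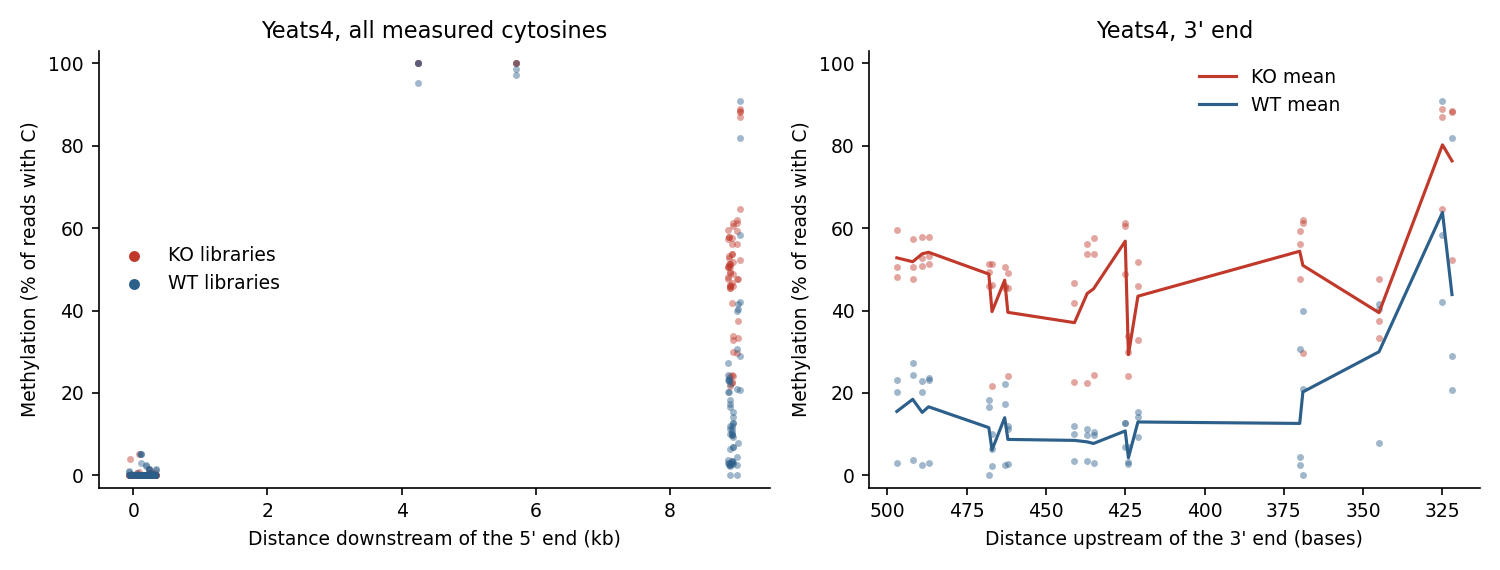
Methylation of each measured Yeats4 cytosine (vertical axis, percent of reads with C) in the 3 KO libraries (red) and 3 WT libraries (blue), by distance from the 5' end in kb (left) and, for the 19 cytosines near the 3' end, by distance upstream of the 3' end in bases with the mean of each genotype as a line (right). The 45 cytosines at the 5' end lie near 0% in both genotypes, the 2 in between lie near 100%, and near the 3' end the KO mean runs above the WT mean at all 19 cytosines.

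Single cytosines showed the same order. At 15 of the 19, all KO libraries were above all WT libraries, while 2.97% of all cytosines measured did so; the 3' end was chosen on these values, so the count is a description. The other 4 had a higher KO mean with overlapping libraries. The pooled difference of a cytosine ranged from 11.2 to 47.4 points, with a median of 33.6. The median cytosine stood at 48.9% in KO 1, 51.7% in KO 2 and 49.4% in KO 3, against 3.09% in WT 1, 20.9% in WT 2 and 16.6% in WT 3. No cytosine was below 10% in any KO library, whereas 17 of the 19 were in WT 1, 2 in WT 2 and 5 in WT 3. In KO, every cytosine was at an intermediate level, between 21.7% and 88.9%.

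The levels changed along the 176 bases. The 6 minus-strand cytosines farthest from the 3' end (463 to 497 bases) read 53.8% in KO 1, 50.5% in KO 2 and 50% in KO 3, against 2.51% in WT 1, 22.9% in WT 2 and 20.3% in WT 3. The KO libraries lay within a few points of each other here, while WT 1 was far below the other WT libraries. The 6 plus-strand cytosines at 424 to 467 bases read 45.1% in KO 1, 49.2% in KO 2 and 23.2% in KO 3, against 2.97% in WT 1, 10.3% in WT 2 and 8.56% in WT 3. The 2 minus-strand cytosines at 421 and 425 bases read 40.9% in KO 1, 56.0% in KO 2 and 53.5% in KO 3, against 8.14% in WT 1, 13.5% in WT 2 and 14.03% in WT 3. In each of these groups the KO and WT libraries did not overlap.

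Towards the 3' end they did. The 4 minus-strand cytosines at 322 to 370 bases read 59.1% in KO 1, 67.3% in KO 2 and 62.1% in KO 3, against 20.4% in WT 1, 59.6% in WT 2 and 31.4% in WT 3. WT 2 had a mean coverage of 11.8 reads over these 4 cytosines, the lowest of any library, against 22.0 in KO 1, 26.8 in KO 2 and 16.5 in KO 3. The single plus-strand cytosine at 369 bases read 29.6% in KO 1, 62.0% in KO 2 and 61.2% in KO 3, against 0% in WT 1, 20.9% in WT 2 and 39.9% in WT 3. These 5 cytosines include all 4 whose libraries overlapped.

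**Figure D2:**
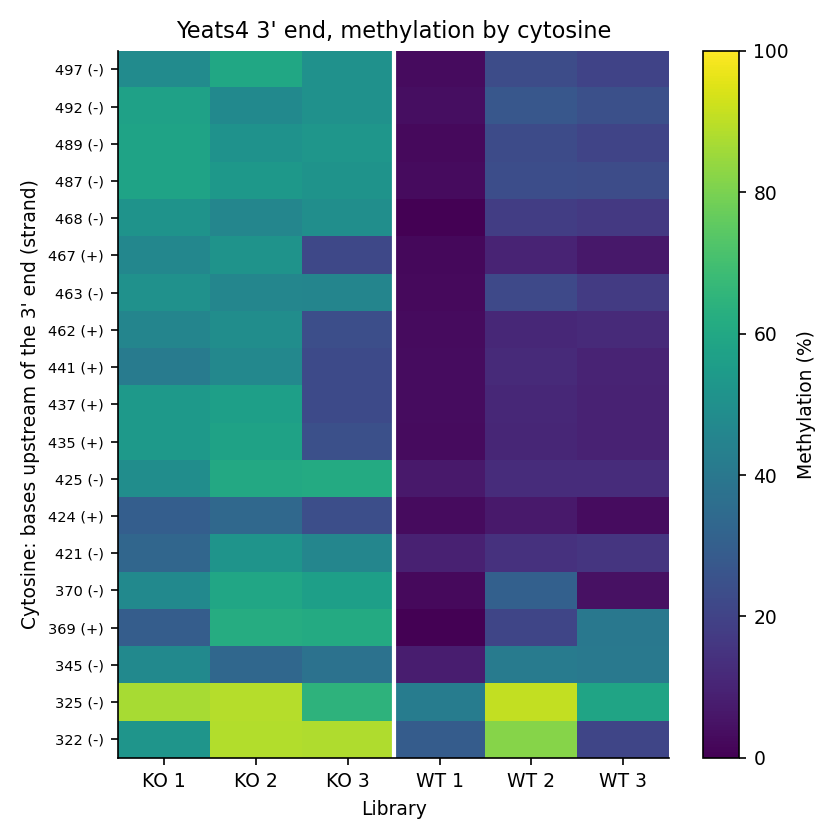
Methylation (colour, 0 to 100%) of the 19 cytosines near the Yeats4 3' end (rows, labelled by bases upstream of the 3' end and strand) in the 3 KO libraries (left) and the 3 WT libraries (right). WT 1 is darkest, with 17 of 19 cytosines below 10%, and the plus-strand cytosines of KO 3 between 424 and 467 bases are lower than its minus-strand cytosines.

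The strands did not read alike. The 12 minus-strand cytosines averaged 52.3% ± 0.915 in KO and 16.1% ± 9.63 in WT, and the 7 plus-strand cytosines averaged 40.3% ± 12.04 in KO and 9.16% ± 5.61 in WT (SD, n = 3 each). The plus strand of KO 3 was the lowest of the KO values at 27.2%, against 52.1% on its minus strand. Of the 24 pairs made by the 4 CpGs read on both strands in 6 libraries, the minus strand was higher in 17. At the CpG at 117215565 the minus strand was higher in all 6 libraries, at 33.8% on average against 16.8% on the plus strand. The 2 strands of a CpG come from different reads of the same libraries, and no test was made of this difference.

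Coverage set which cytosines counted, and no cytosine near the 3' end of Yeats4 was lost to it. Just inside the minimum were the cytosines 322 and 325 bases from the 3' end, with 11 reads in WT 2 at levels of 81.8% and 90.9%. The 13 Yeats4 cytosines left out lay between 89 bases and 4465 bases from the 5' end. Of these, 8 were short in more KO than WT libraries and 4 in more WT than KO libraries. The 4 that missed the minimum in KO 2 alone lay 89 to 112 bases from the 5' end and read between 0% and 4.44% in the other libraries.

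On either side of the 3' cluster the DNA was methylated in both genotypes. The nearest measured cytosine downstream of the gene, 7.13 kb away at 117208336, read 92.0% ± 3.86 in KO and 92.5% ± 6.75 in WT (SD, n = 3 each). The nearest one inside the gene, 3.16 kb away at 117218795, read 100% in all 3 KO libraries, against 100% in WT 1, 97.0% in WT 2 and 98.7% in WT 3. No cytosine in between was measured in all libraries, so where the change in level starts and ends is not known. Within 100 kb on either side of Yeats4 there were 9 other tiles of 1 kb with at least 3 cytosines, which differed by -2.21 to 18.2 points with a median of 0.190. The 18.2 came from 3 cytosines at 117230001 to 117231000, where KO 1, KO 2 and KO 3 read 74.5%, 93.9% and 61.2%, against 58.8%, 79.5% and 67.0% in WT 1, WT 2 and WT 3, so the libraries overlapped.

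The neighbouring protein-coding genes are Frs2, which encodes an adaptor of fibroblast growth factor receptors and ends 66.7 kb below Yeats4, and 9530003J23Rik, which starts 9.25 kb above it. The lysozyme genes Lyz2 and Lyz1 follow at 53.03 kb and 63.3 kb. The span of a lncRNA gene, Gm31963, overlaps that of Yeats4 by 22 bases at the unmethylated promoter, and the strand of Gm31963 was not analysed here. No annotated gene lies between the 3' cluster of Yeats4 and the lncRNA genes 33.8 kb below it.

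Yeats4 was chosen for its difference, so its place among other 3' ends is a description that follows from the choice and supports nothing. Over 3248 measured 3' ends the median was 90.4% in KO and 89.4% in WT, and 48.8% of them were above 90% in WT. Another 21.9% were below 10% in WT, and 187, or 5.76%, were between 10% and 30%, the class of Yeats4. The other 186 of that class differed by a median of 0.9002 points, from -7.06 to 16.9, with 122 higher and none by more than 20 points. The 16.9 belonged to Glp1r, the receptor of an intestinal hormone that promotes insulin release.

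**Figure D3:**
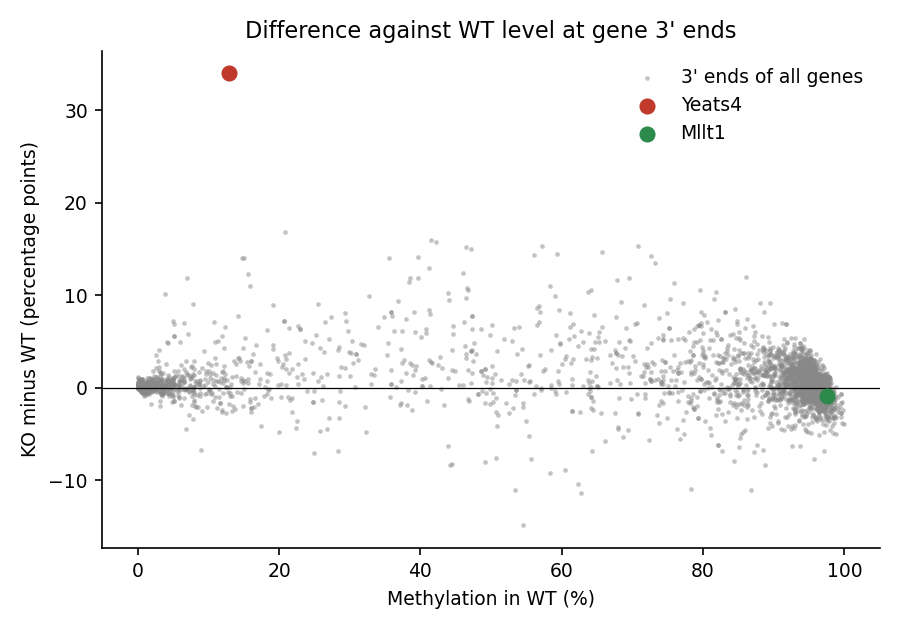
Difference in methylation (KO minus WT, percentage points, vertical axis) against the WT level (percent, horizontal axis) for the 3248 gene 3' ends with at least 3 cytosines, each a grey point. Yeats4 (red) lies at 13% in WT with a difference of 34.0 points, for which it was chosen, and Mllt1 (green) lies among the methylated 3' ends with a difference near 0.

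The gene-end windows whose levels over the 6 libraries came nearest to Yeats4 were those of Iqce, Ndfip1, Fam167b, Sirt2 and Fap, measured by the root mean square difference in points over libraries. The nearest, the lower end of Iqce, was 9.91 points away and read 38.5% ± 3.53 in KO and 22.9% ± 3.33 in WT (SD, n = 3 each). The upper end of Ndfip1, which encodes an adaptor of NEDD4 ubiquitin ligases, was 11 points away with 39.2% ± 3.11 in KO and 25.1% ± 7.09 in WT. The others were 13.2 to 13.6 points away. All KO libraries were above all WT libraries at Iqce, Ndfip1 and Sirt2, and the libraries overlapped at Fam167b and Fap. Over all gene-end windows, 8.11% had all KO libraries above all WT libraries. These windows were picked for levels like those of Yeats4, so their order of genotypes follows from that choice and supports nothing. Their means ran from 28.1% to 39.2% in KO, below the 46.7% of Yeats4, and from 17.9% to 26.5% in WT, above its 13.0%.

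The number of reads at the 3' end of Yeats4 was not itself the ground for choosing the gene. It is not independent of that choice, since the methylation levels were computed from these reads with a minimum of 10. The p-values on coverage are therefore given as a description. After scaling for depth, the mean coverage per cytosine was 68.2 reads in KO 1, 88.9 in KO 2 and 77.5 in KO 3, against 152 in WT 1, 127 in WT 2 and 135 in WT 3. The genotypes did not overlap. Among the WT libraries, WT 1, with the lowest methylation, had the highest coverage. Among the KO libraries, KO 2, with the highest methylation, had the highest coverage. The log2 ratio of KO over WT was -0.82, with an adjusted p of 0.0878 by edgeR's quasi-likelihood test over 108943 tiles, which misses the threshold of 0.05, and of 0.0587 by DESeq2. The unadjusted p was 0.00124, and an exact two-sided permutation test gave 0.1, the smallest that 3 against 3 libraries allow. Of all tiles, 174, or 0.160%, had a lower ratio, and of the 4433 tiles at 10% to 30% in WT, 6, or 0.135%, did. By this test 33 of 108943 tiles (0.0303%) were called, and none of the 23 tiles of the 4 genes was among them, although 4 of these had an unadjusted p under 0.05, the 3' tile of Yeats4 and 3 of Mllt3. Of all tiles, 18.4% had one, so the count over the 4 genes lies near the background. On simulated counts edgeR recovered 13% of tiles 2-fold lower in KO, so the lack of a call says little.

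Across the whole series, the coverage ratio went with the WT methylation level. The median log2 ratio of coverage, KO over WT, was -0.30 in tiles below 10% in WT, -0.15 at 10% to 30%, 0.02 at 30% to 70%, 0.14 at 70% to 90% and 0.15 at 90% and above. The 5' tile of Yeats4, unmethylated in both genotypes, had a log2 ratio of -0.39 (adjusted p = 0.306 by edgeR). The part of coverage in the methylation difference was not tested. Without molecular identifiers, PCR copies cannot be told from separate molecules, so the read numbers behind each level cover counting error only.

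Yeats2 (gene 208146), the ATAC subunit, lies on the plus strand of chromosome 16 from 20141053 to 20232573 and spans 91.5 kb. Of its 60 cytosines, 41 were below 10%, 15 above 90% and 4 in between, as means of the 6 libraries. The 41 at the 5' end read 0.210% in KO 1, 0.185% in KO 2 and 0.0846% in KO 3, against 0.0573% in WT 1, 0.0515% in WT 2 and 0.0201% in WT 3. All KO libraries were above all WT libraries, as in 8.11% of all gene-end windows, at a difference of 0.118 points that did not pass the test (adjusted p = 0.856 by the quasi-binomial model). The 19 cytosines of the interior read 97.1% in KO 1, 95.0% in KO 2 and 95.5% in KO 3, against 96.6% in WT 1, 94.4% in WT 2 and 92.8% in WT 3, and the libraries overlapped (adjusted p = 0.773). The largest difference of a single Yeats2 cytosine that had an unadjusted p under 0.05 was -19.0 points at 20157109, where KO 1, KO 2 and KO 3 read 100%, 76.5% and 59.5%, against 100%, 89.8% and 90.2% in WT 1, WT 2 and WT 3. The 3' end of Yeats2 had fewer than 3 cytosines and could not be compared.

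Mllt1 (gene 64144), one of the DOT1L and elongation complex readers, lies on the minus strand of chromosome 17 from 56892608 to 56935509 and spans 42.9 kb. It had the most cytosines of the 4 genes, 135 below 10%, 47 above 90% and 6 in between. The 137 cytosines of the 5' end read 0.654% in KO 1, 0.752% in KO 2 and 0.544% in KO 3, against 0.780% in WT 1, 0.655% in WT 2 and 0.614% in WT 3. These libraries overlapped, and the adjusted p was 0.977. Mllt1 was the only other gene of the 4 with a 3' end of at least 3 cytosines. It read 99.2% in KO 1, 96.4% in KO 2 and 93.7% in KO 3, against 97.9% in WT 1, 99.0% in WT 2 and 96.2% in WT 3, from 189 to 288 reads, and the libraries overlapped (adjusted p = 0.966).

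The 48 cytosines of the Mllt1 interior read 93.2% in KO 1, 95.3% in KO 2 and 93.9% in KO 3, against 92.2% in WT 1, 93.7% in WT 2 and 93.2% in WT 3 (adjusted p = 0.536), and the libraries overlapped. Only 1 tile of the 3 genes had an intermediate level, that of Mllt1 from 56899001 to 56900000, with 59.2% in KO 1, 75.7% in KO 2 and 68.9% in KO 3, against 62.2% in WT 1, 65.4% in WT 2 and 66.3% in WT 3. It overlapped as well, unlike the 3' end of Yeats4. The CpG at 56894730 was higher in all KO libraries on both strands. Its plus strand read 100% in KO 1, 97.5% in KO 2 and 97.4% in KO 3, against 73.9% in WT 1, 89.6% in WT 2 and 88.2% in WT 3, with an unadjusted p of 0.00349 and an adjusted p of 0.551.

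Mllt3 (gene 70122) lies on the minus strand of chromosome 4 from 87769925 to 88033407 and is the longest of the 4 at 263.5 kb. The 76 cytosines of its 5' end read 0.642% in KO 1, 0.390% in KO 2 and 0.156% in KO 3, against 0.149% in WT 1, 0.0898% in WT 2 and 0.149% in WT 3. All KO libraries were above all WT libraries, although KO 3 lay just above WT 1, and the difference of 0.263 points had an unadjusted p of 0.0180 and an adjusted p of 0.789. Its 3' end had fewer than 3 cytosines and could not be compared.

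The interior of Mllt3 gave the largest difference among the gene ends, interiors and tiles of Yeats2, Mllt1 and Mllt3. The size of that difference depended on how cytosines were weighted. Over the pooled reads of its 57 cytosines it read 40.9% in KO 1, 40.9% in KO 2 and 36.9% in KO 3, against 15.7% in WT 1, 27.9% in WT 2 and 37.1% in WT 3. The libraries overlapped, and the difference of 12.8 points had an unadjusted p of 0.0363 and an adjusted p of 0.282. With each cytosine weighted equally, the level was 48.2% ± 0.523 in KO and 47.3% ± 0.461 in WT (SD, n = 3 each), 0.971 points apart. The 27 cytosines within 5 kb of the 5' end read 0.733% ± 0.356 in KO and 0.411% ± 0.124 in WT, and the other 30 read 91.3% ± 0.8999 in KO and 91.5% ± 0.440 in WT. The unmethylated 27 took 57.2% ± 2.83 of the interior's reads in KO and 70.9% ± 11.8 in WT, with 83.2% in WT 1. Without WT 1 the pooled difference was 7.24 points.

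One Mllt3 cytosine stood out. At 87788938, 19013 bases upstream of the 3' end, KO 1, KO 2 and KO 3 read 80.4%, 80.6% and 80.8%, against 44.4%, 53.8% and 34.3% in WT 1, WT 2 and WT 3. The genotypes were separated by 39.2 points over pooled reads, on 51, 72 and 26 reads in KO 1, KO 2 and KO 3, against 27, 13 and 35 reads in WT 1, WT 2 and WT 3. The unadjusted p was 0.000734 and the adjusted p over 1095119 cytosines 0.536. The neighbouring cytosine at 87788890 read 18.4%, 15.1% and 3.85% in KO 1, KO 2 and KO 3, against 11.1%, 7.14% and 3.23% in WT 1, WT 2 and WT 3, and overlapped.

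**Figure D4:**
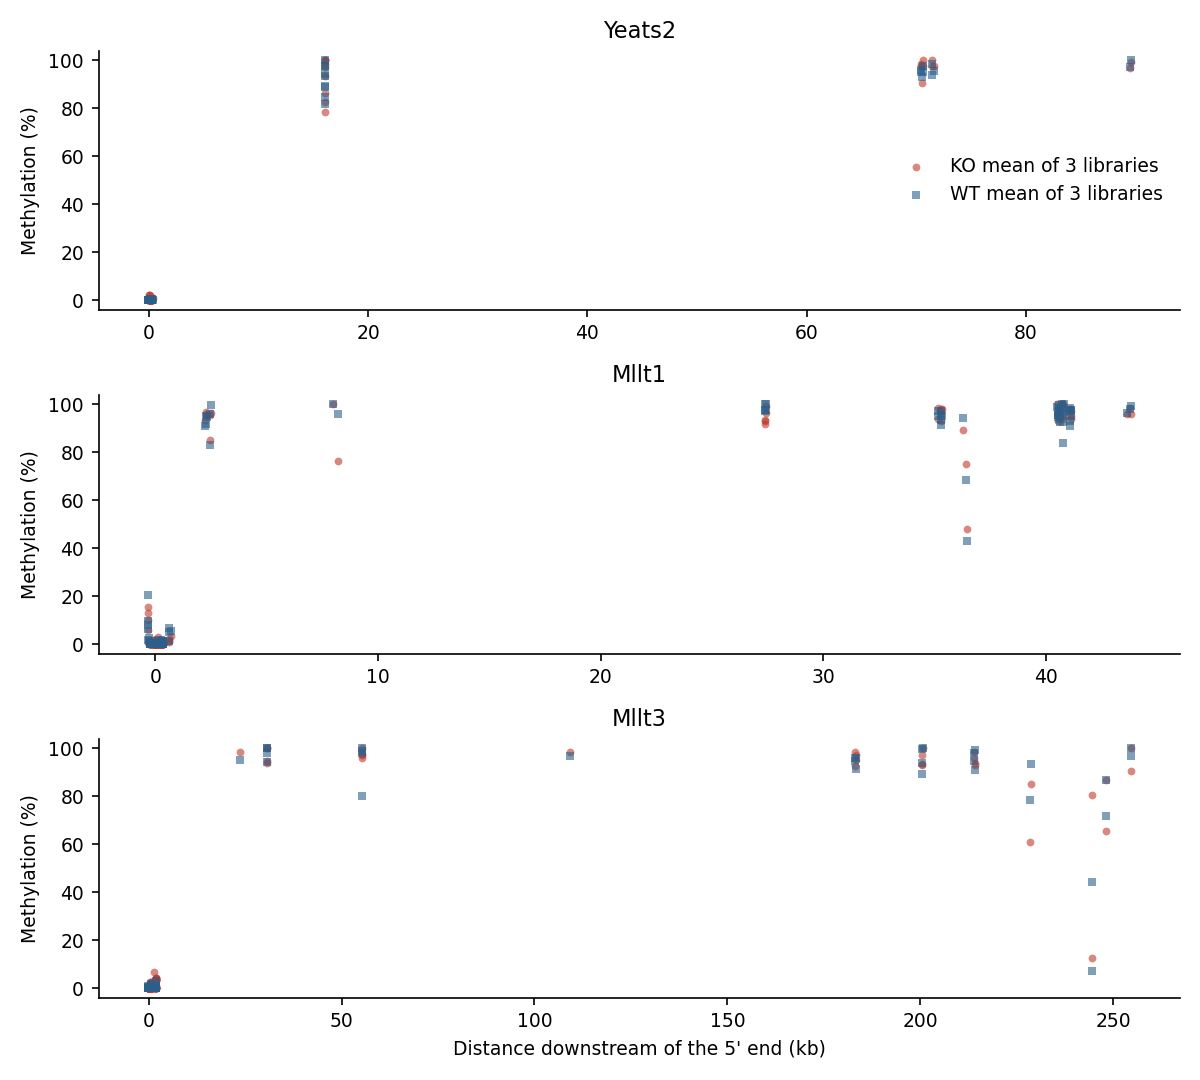
Methylation of every measured cytosine of Yeats2, Mllt1 and Mllt3 (vertical axis, percent) by distance downstream of the 5' end (kb), with the mean of the 3 KO libraries as red circles and of the 3 WT libraries as blue squares. Cytosines at the 5' ends lie near 0% and almost all others near 100%, with the KO and WT symbols close together except at single cytosines such as the Mllt3 cytosine at 80.6% in KO and 44.2% in WT.

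Tested together with all features of the series, none of the regions of Yeats2, Mllt1 and Mllt3 was called. In the quasi-binomial model, a call needed at least 10 points of difference beside an adjusted p under 0.05. Of their 21 tiles, 0 were called and 0 had an unadjusted p under 0.05, where 0.112% of all tiles were called and 7.2% were under 0.05. Limma on log2 ratios called 0 tiles, 0 gene-end windows and 0 interiors over the whole series, so its lack of calls says nothing of these 3 genes. Their tile differences ran from -2.15 to 3.21 points, 16 of 21 were higher in KO, where 59.8% of all tiles were, and the lowest adjusted p was 0.700. All KO libraries were above all WT libraries in 3 tiles and below in 1, where 8.35% of all tiles were above and 3.36% below.

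Of their 4 gene-end windows, 0 were called and 1, the 5' end of Mllt3, had an unadjusted p under 0.05, where 5.82% of all windows did. Over all windows 0.00569% were called. Of their 3 interiors, 0 were called, as over all 11309 interiors (0.0%), and 1, that of Mllt3, had an unadjusted p under 0.05, where 15.6% of all interiors did. All 3 interiors had a higher mean in KO, where 74.3% of all interiors did, and in none were all KO libraries above all WT libraries, as in 18.4% of all interiors. No single cytosine of the 3 genes was called, where 0.000731% of all cytosines were. An unadjusted p under 0.05 was found at 2 higher and 1 lower cytosines of Yeats2, 4 higher and 1 lower of Mllt1 and 4 higher of Mllt3, where 8.48% of all tested cytosines had one. Cytosines with no spread between libraries were not tested, and the number tested at each gene is not given here. These counts are therefore not shares of the measured cytosines of each gene. All KO libraries were above all WT libraries at 2 cytosines of Yeats2, 4 of Mllt1 and 3 of Mllt3 (2.97% of all cytosines), and below at 3 of Mllt1 and 1 of Mllt3 (2.25%).

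**Figure D5:**
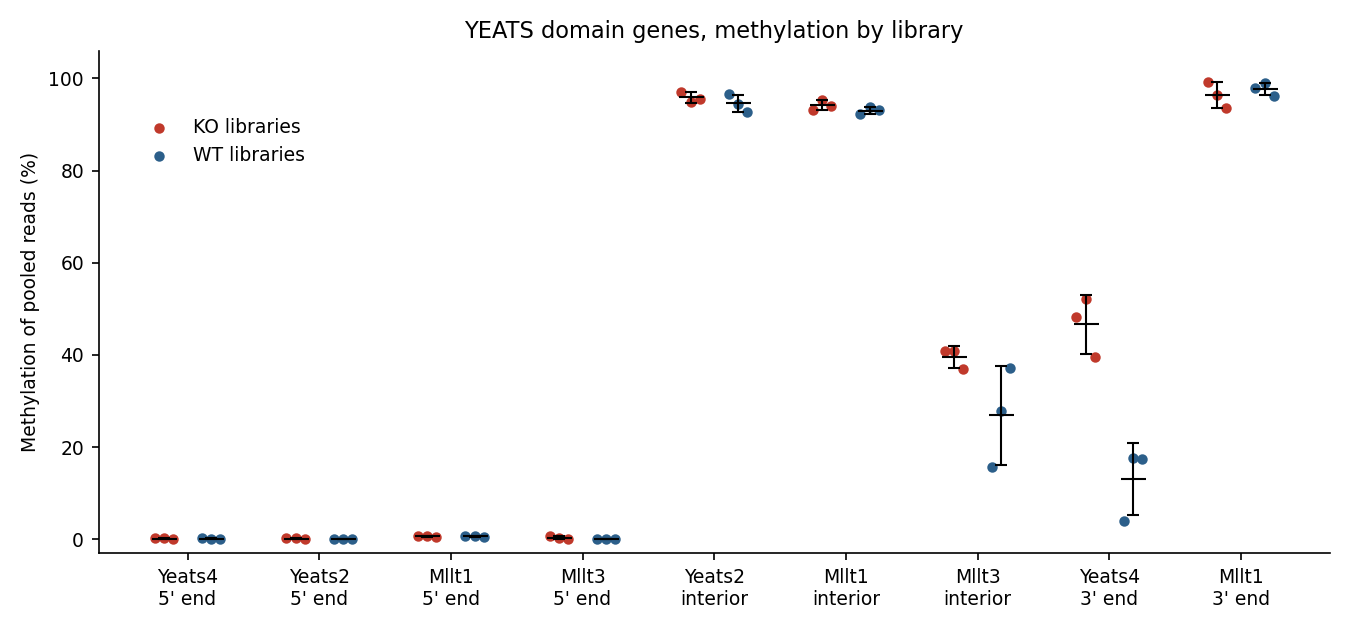
Methylation of pooled reads (vertical axis, percent) at the measured 5' ends, interiors and 3' ends of the 4 genes, with each KO library (red) left of each WT library (blue) and bars for mean ± SD (n = 3). The 5' ends lie near 0% in all libraries, and the genotypes separate by more than their spread at the 3' end of Yeats4, while at the Mllt3 interior WT 3, at 37.1%, lies within the KO range.

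Coverage at these 3 genes gave no call either. The lowest adjusted p, 0.114 by edgeR, belonged to the Mllt3 tile from 87978001 to 87979000, with 134, 139 and 68.9 scaled reads per cytosine in KO 1, KO 2 and KO 3, against 18.8, 58.8 and 78.4 in WT 1, WT 2 and WT 3. Its log2 ratio was 1.12, in the opposite direction to that of Yeats4, and the libraries overlapped. The Mllt3 tile from 87832001 to 87833000 had a log2 ratio of 1.1 and an adjusted p of 0.122, and both tiles are methylated at over 95% in WT.

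The partner genes of the YEATS proteins were examined as 6 lists, in which no gene end or interior was called. The lists share genes with each other and hold Yeats2, Mllt1 and Mllt3, and Yeats4 was left out of them. Over all gene-end windows 0.00569% were called. Of the TIP60 and p400 complex, 9 genes had a measured 5' end, all below 10% in WT, and 8 were higher in KO, by a median of 0.0960 points, where 63.8% of all 5' ends were higher, by a median of 0.0472 points. Its smallest p was that of the 5' end of Mbtd1, which encodes a reader of methylated histones, at 0.240% ± 0.113 in KO and 0.124% ± 0.0307 in WT (SD, n = 3 each; adjusted p = 0.850). None of its 12 interiors had an unadjusted p under 0.05. In the SRCAP complex, 4 of 7 5' ends and 4 of 6 interiors were higher in KO, where 63.8% of all 5' ends and 74.3% of all interiors were. Its smallest p was that of the interior of Znhit1, a subunit of that complex, at 25.4% ± 2.01 in KO against 20% ± 3.15 in WT (adjusted p = 0.260).

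The ATAC complex, the home of YEATS2, had 10 of 13 5' ends and 6 of 8 interiors higher in KO. For this and the following lists, the shares over the whole series were 63.8% of 5' ends and 74.3% of interiors. Its smallest p was that of the interior of Sgf29, a reader of methylated histone H3, at 25.3% ± 4.89 in KO against 18.03% ± 2.51 in WT (adjusted p = 0.245). In the super elongation complex, 8 of 12 5' ends and 8 of 9 interiors were higher in KO, and 4 of the 9 interiors, that of Mllt3 among them, had an unadjusted p under 0.05, where 15.6% of all interiors did. The interior of Aff1, a scaffold of that complex, read 35.7% ± 1.08 in KO and 30.9% ± 2.05 in WT (adjusted p = 0.150). The list of the DOT1L complex and MLL fusion partners had 4 of 10 5' ends and 8 of 12 interiors higher in KO, with the smallest p for the interior of Bcor, a transcriptional corepressor, at 7.196% ± 0.273 in KO against 5.83% ± 0.282 in WT (adjusted p = 0.150). Among bromodomain genes, which encode the other main class of acetyl-lysine readers, 5 of 7 5' ends and 8 of 9 interiors were higher in KO. Brd3 had the smallest p, with an interior at 13.8% ± 0.337 in KO against 12.3% ± 0.0573 in WT (adjusted p = 0.150). An unadjusted p under 0.05 was also found at 3 of 9 bromodomain interiors, 3 of 12 of the DOT1L list, 1 of 8 of ATAC and 1 of 6 of SRCAP.

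Markers of cell types that a spleen preparation could hold gave few measured gene ends. Of 10 B cell markers, 3 had a measured 5' end. Ebf1 and Pax5, transcription factors of the B lineage, were unmethylated there, at 0.109% ± 0.114 in KO and 0.0551% ± 0.0358 in WT for Ebf1 and 0.527% ± 0.754 in KO and 0.201% ± 0.192 in WT for Pax5 (SD, n = 3 each). Cd22, an inhibitory coreceptor of B cells, read 38.5% ± 2.70 in KO and 30.01% ± 3.13 in WT. Zap70, a kinase of T cell receptor signalling and 1 of 3 measured 5' ends among 10 T cell markers, was methylated at 93.4% ± 2.45 in KO and 82.6% ± 5.77 in WT. The other measured T cell markers, the transcription factors Tcf7 and Bcl11b, were low at their 5' ends, at 4.32% ± 0.300 in KO and 3.48% ± 0.402 in WT for Tcf7 and 4.41% ± 0.495 in KO and 4.08% ± 0.288 in WT for Bcl11b. Measured 5' ends were also few for myeloid markers (1 of 10), NK cell markers (2 of 6), erythroid markers (1 of 6) and plasma cell markers (3 of 5). None of these 13 windows was called, and 3 had an unadjusted p under 0.05, those of Cd22, Zap70 and Tcf7, where 5.43% of all 5' ends had one. The median over the measured 5' ends of a list ranged over libraries from 0.190% to 1.39% in KO and from 0.0730% to 0.383% in WT for B cell markers, and from 4.24% to 4.81% in KO and from 3.84% to 4.39% in WT for T cell markers. Of the 3' ends of these markers, 7 were measured, none was called and 1 had an unadjusted p under 0.05 (6.87% of all 3' ends), that of the NK cell factor Tbx21, where KO libraries averaged 16.8% ± 4.75 and WT libraries 7.81% ± 1.64, with an adjusted p of 0.768. At the 3' end of Bcl11b the KO libraries averaged 93.6% ± 4.2 and the WT libraries 84% ± 3.46, with an adjusted p of 0.856. Interiors were measured for 25 markers, of which 19 were higher in KO (74.3% of all interiors), none was called and 5 had an unadjusted p under 0.05 (15.6% of all interiors). These 5 were Pax5, Bcl11b, the erythroid membrane protein gene Ank1 and the plasma cell markers Prdm1 and Sdc1. Ank1 had the smallest p of them, with a mean of 44.2% ± 0.941 over KO libraries against 37.4% ± 1.48 over WT libraries and an adjusted p of 0.150. Pax5 averaged 31.5% ± 1.77 over KO libraries against 26.4% ± 2.70 over WT libraries, with an adjusted p of 0.184. Bcl11b was at 50.01% ± 1.34 in KO and 47.2% ± 1.93 in WT, Prdm1 at 54.1% ± 1.81 in KO and 49.4% ± 0.693 in WT and Sdc1 at 30.6% ± 2.01 in KO and 25.8% ± 3.10 in WT. The part of other cells in the difference at Yeats4 was not tested.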

How the data were processed

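Each of the 6 libraries has its own table in which each line is a CpG cytosine on one strand. The submitters' processing notes name Bismark and the build GRCm38. Its version, the read trimming and whether duplicates were removed were not given in the sources used here. Per the file headers, the deposited values are the coverage, a raw count of reads, and the percent of those reads with C and with T. No deposited count is below 10. Multiplying coverage by these percents gave back the counts of C and T, whole in 100% of values within the percents' rounding. Gene names and spans came from the RefSeq gene table, and gene strands, starts and promoter sequences from the RefSeq promoter table, both of GRCm38.p6. As a check of the build, 192934 of 192934 measured cytosines inside promoter windows fell on a CpG. No genome sequence or exon annotation was used.

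Features were single cytosines, tiles of 1 kb and windows of 1 kb on each side of a gene end with at least 3 cytosines, and gene interiors (more than 1 kb from both ends) with at least 5. Only cytosines with at least 10 reads in every library entered. A quasi-binomial model with 1 level per genotype was fitted to the C and T counts of every feature. Its overdispersion (4 residual degrees of freedom) was moderated with limma 3.58.1 in R 4.3.3, leaving out features with no spread between libraries, and was kept from falling below 1. KO and WT were compared by F test with Benjamini-Hochberg adjustment over the whole table. Calls needed both a pooled difference of at least 10 percentage points and an adjusted p under 0.05. Mean coverage per tile, rounded to whole reads, was compared with edgeR 4.0.16 (quasi-likelihood test, TMM scaling), and DESeq2 1.42.0 was an alternative; this comparison was added after seeing the data. Scripts were tested on simulated counts. The coverage test recovered 60% of tiles simulated 2-fold higher in KO and 13% of those 2-fold lower. The quasi-binomial model recovered 86% of tiles changed by 20 points and 99% of those changed by 35 points. That simulation used an overdispersion far below the 83.7 of the Yeats4 3' end and the 152 of the Mllt3 interior, so it does not speak for such regions.

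The genes, the lists of partner genes and cell type markers, and the rules for naming genes were chosen with earlier results of these data known. The named genes are the 4 YEATS domain genes, Tet2, the neighbours of Yeats4, the 5 gene-end windows with at least 5 cytosines nearest to its 3' end in level, and the gene with the smallest p in each partner list. Glp1r, the marker genes and single cytosines were named after their values were seen. The replicate numbers were not taken as a pairing in the main comparison. Deviations of same-numbered KO and WT libraries correlated with Pearson's r of -0.0297 to 0.0498 over 29452 tiles. Differently numbered libraries gave -0.0392 to 0.0543. Such weak correlations show no pairing but cannot exclude one. The alternatives were a coverage minimum of 20, the top 0.1% of coverage left out, equal weight for each cytosine, summed strands, each library left out, no moderation, a trend in the moderation, a block for the replicate number, and limma on log2 ratios with a pseudocount of 2.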

Additional observations from a re-analysis of the deposited data

How the results depend on the processing

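The difference at the 3' end of Yeats4, 34.0 points, lay between 29.4 and 37.7 points under 11 alternatives, the lowest without WT 1 and the highest without KO 3, and was 33.7 points as the mean over same-numbered libraries (replicate block). No tile, gene end or interior of Yeats2, Mllt1 or Mllt3 was called under any of 15 alternatives each. Counts over the whole series moved more. Of all tiles, 122 were called, all higher in KO, against 6 with strands summed and 0 with equal weights, the replicate block, no moderation, limma on log2 ratios or, added after seeing the data, features with no spread kept. Leaving out single libraries gave 52 to 122 tiles, and 52 were called without KO 2 and 52 without WT 1. Of all gene-end windows, 1 was called, against 2 with strands summed and 0 with equal weights, the replicate block, no moderation, limma or no-spread features kept. Leaving out single libraries gave 0 to 1 windows, with 0 without KO 1 or KO 2. Of all interiors, 0 were called in the main comparison and 0 to 79 when single libraries were left out, the 79 without WT 3 (78 higher, 1 lower). The cause of these changes was not tested. The log2 coverage ratio at the 3' end of Yeats4 was -0.82, and -0.82 with the replicate block (adjusted p = 0.0357 by edgeR). Only with that block was the adjusted p below the threshold. Without single libraries the ratio was -0.92 to -0.73, with adjusted p of 0.0882 to 0.303. These p-values are a description, since coverage is not independent of the choice of this region and was compared after seeing the data. The block assumes a pairing that the correlations between libraries did not show, though they could not exclude one. The Mllt3 interior differed by 12.8 points, against 8.65 at a coverage minimum of 20, 3.45 with strands summed and 0.971 with equal weights. Depth limited the 3' end of Yeats4 most at the cytosines nearest to the end, where WT 2 had 11 reads each, and 3 libraries per genotype cannot give an exact permutation p below 0.1.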
